A study of Saccharomyces cerevisiae with 9 samples.

Results

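The genes described here are 34 genes of the budding yeast proteasome: the 14 subunits of the 20S core, 18 subunits of the 19S regulatory particle, the deubiquitinase UBP6 and RPN4, which encodes the transcription factor of proteasome genes. They were chosen by name and function from the 5928 genes of the count table, with earlier results of these data known. All 34 passed the filter on low counts, among 5646 genes tested. RNA was sequenced from S. cerevisiae, w303 background, mating type alpha. The Pcf11-13, Pcf11-DNL and wild type (WT) strains had 3 biological replicates each. The strains carry ura3-1, trp1-delta, ade2-1, his3-11,15 and a leu2 allele, whose number the labels write differently for Pcf11-DNL than for the other strains. In all of them, controls included, the chromosomal PCF11 gene was replaced by TRP1 and PCF11 came from the LEU2 plasmid pRS325, which the labels call centromeric and low in copy. This plasmid carried pcf11-13 in the Pcf11-13 strain, V5-pcf11-deltaN-linkMYC in the Pcf11-DNL strain and V5-PCF11-MYC in WT, so the Pcf11-13 gene is the one with no tag named. Pcf11 is a subunit of the machinery that cleaves pre-mRNA and ends transcription. All cultures grew in YPAD at 30 °C and carry the treatment label glucose.

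The proteasome is the protease that degrades proteins marked with ubiquitin. Its 20S core is a barrel of alpha and beta rings, with the protein-cutting sites on some of the beta subunits. The 19S particle caps the barrel, and its base and lid bind ubiquitin chains, remove them and push the unfolded protein inside. In yeast the subunit genes share a promoter element, the proteasome-associated control element, which the Rpn4 protein binds. Rpn4 is itself degraded by the proteasome within minutes of being made, so the pathway forms a feedback loop in which less proteasome activity leaves more Rpn4.

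The box GGTGGCAAA was searched on both strands from 250 bases before to 50 bases after the coding start, in the RefSeq R64 genome, the build the deposited table uses. It was found in 27 of the 34 members, or 79.4%, against 72 of all 6001 protein-coding genes, or 1.2%. Every one of these 27 members had a single copy. It was on the gene's own strand in 19 and on the opposite strand in 8. The box began between 84 bases (RPT6) and 183 bases (PUP3) before the coding start, with a median of 120. Below are 6 of these boxes in capitals with 6 flanking bases on each side, read on the strand that carries the box. They are shown because they include the subunit genes with the largest increases in the core, the ATPase ring and the lid, and the genes RPT6 and RPN1, which did not pass the test.
PRE6 (chrXV:255222-255242, minus strand): ccttccGGTGGCAAAagaatc
PRE3 (chrX:435039-435059, plus strand): gaatccGGTGGCAAAaaaggg
RPT2 (chrIV:437910-437930, plus strand): ttctccGGTGGCAAAtgtctc
RPN12 (chrVI:252402-252422, minus strand): tcaatgGGTGGCAAAtaatgt
RPT6 (chrVII:411356-411376, minus strand): gagcgaGGTGGCAAAagttgt
RPN1 (chrVIII:164842-164862, minus strand): ttttacGGTGGCAAAaggcga

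Of the 7 members without the exact box, 6 had a copy with 1 mismatch. Positions are counted from 1 at the 5′ end of the box, with the base of the box first. PRE5, PUP1, RPN8 and UBP6 carried AGTGGCAAA, which is G1A. RPN10 and RPN13 carried GGTGGCGAA, which is A7G. A copy with at most 1 mismatch was in 454 of the 6001 genes, or 7.57%. RPN4 had neither form in this window.

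The promoter of RPN4 was read further, over 600 bases before the coding start, since the factors Yap1, Pdr1, Pdr3 and Hsf1 are known to act on it. The stretch chrIV:416861-417160, minus strand, covers the bases from 452 to 153 before the coding start. Capitals mark the Pdr1/Pdr3 site TCCGTGGA, found on both strands, the Yap1 site TTACTAA, and a heat shock element (alternating GAA and TTC units) on the opposite strand.
RPN4: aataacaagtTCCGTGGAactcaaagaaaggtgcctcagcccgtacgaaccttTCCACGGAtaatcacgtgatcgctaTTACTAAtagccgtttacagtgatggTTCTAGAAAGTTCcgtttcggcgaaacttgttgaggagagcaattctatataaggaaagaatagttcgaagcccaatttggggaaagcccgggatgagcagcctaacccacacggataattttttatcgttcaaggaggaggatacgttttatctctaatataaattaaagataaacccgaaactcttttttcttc
The Pdr1/Pdr3 sites began 442 and 399 bases before the coding start, the Yap1 site 374 bases and the heat shock element 348 bases. A further heat shock element began 21 bases before it, outside the stretch shown. Among 5999 genes, 1.3% had the Pdr1/Pdr3 site in such a window, 13.7% the Yap1 site and 1.7% the heat shock element. None of these matches shares a base with another. The palindromic form TCCGCGGA was not found in the RPN4 window.

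Library totals lay between 11372819 and 15906466 expected counts, and the members had between 853 (RPN4) and 9765 (RPN2) counts in a library. Levels are in CPM, in which each count is set relative to the library total after TMM scaling. Changes are given on the log2 scale, with the SE behind the sign ±, from edgeR's quasi-likelihood test. Adjustment of p was by Benjamini-Hochberg over the 5646 genes, with a threshold of 0.05. PCF11 (YDR228C) was at 648 ± 32.3 CPM in Pcf11-13, 67.4 ± 2.56 in Pcf11-DNL and 84.7 ± 3.05 in WT (SD, n = 3 each). Against WT its change was 2.93 ± 0.05 in Pcf11-13, a fold of 7.64 (edgeR adjusted p = 1.56e-16). In Pcf11-DNL it was -0.33 ± 0.05, a fold of 0.795 (edgeR adjusted p = 0.00072). Pcf11-13 thus differed from WT in the allele, the tag named and the PCF11 transcript level. Their parts in the changes below cannot be told apart. Poly(A) RNA of whole cultures was measured, so fewer cells with a transcript and less of it per cell cannot be told apart. WT replicate 1 stood apart from the other WT libraries. Set against each of them over all genes, its counts gave a chi-square of 10.7 and 10.1 per degree of freedom, where replicates elsewhere gave 2.5 to 4.7. All 14 core subunits lay below their WT mean in that library.

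In Pcf11-13 the proteasome genes were mostly higher than in WT, by small amounts. Of the 34 members, 26 were higher, 1 was lower and 7 did not pass the test. Among all genes tested, 35.2% were higher and 30.9% lower. The members' median log2 fold change was 0.18, a fold of 1.13, against 0.03 over all genes. All 3 Pcf11-13 libraries lay above all 3 WT libraries in 28 members, as they did in 37% of all genes. They lay below in 1 member, as in 32.7% of all genes. Together the members held 0.928% ± 0.0229 of the counts in Pcf11-13 libraries, and 0.710% ± 0.0405 in WT libraries (SD, n = 3 each). These shares are of library totals, without TMM scaling. Scaled by library totals, the median log2 fold change of all genes was already 0.25. In TMM-scaled CPM the members summed to 8506 ± 157 in Pcf11-13 and 7543 ± 245.5 in WT (SD, n = 3 each).

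Pcf11-DNL differed from WT in only 1 member past the test, RPN4, which was higher. No member was lower by edgeR or by the DESeq2 Wald test, and 3 of the 34 members had an unadjusted p under 0.05. Among all genes 8.73% were higher and 4.3% lower. The median of the members was -0.01, and the 95% intervals of the 32 subunits reached from -0.22 (RPT4) to 0.21 (PRE3), so changes beyond folds of 0.857 and 1.153 lay outside all of them. All 3 Pcf11-DNL libraries lay above WT in 1 member and below WT in 4, against 17% and 15.8% of all genes. The members held 0.724% ± 0.0220 of Pcf11-DNL counts, as a share of library totals, and summed to 7433 ± 222 TMM-scaled CPM (SD, n = 3).

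Set against each other, the mutants differed in most members. In Pcf11-DNL, 29 members were lower than in Pcf11-13, 1 was higher (RPN10) and 4 did not pass (PRE5, PRE9, RPT6 and RPN7). Among all genes 30.9% were lower and 29.5% higher. The median over the members was -0.22, against -0.02 over all genes. All 3 Pcf11-DNL libraries lay below all 3 of Pcf11-13 in 31 members and above them in 2, against 34.1% and 32.9% of all genes. This comparison shares its libraries with those against WT.

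**Figure D1:**
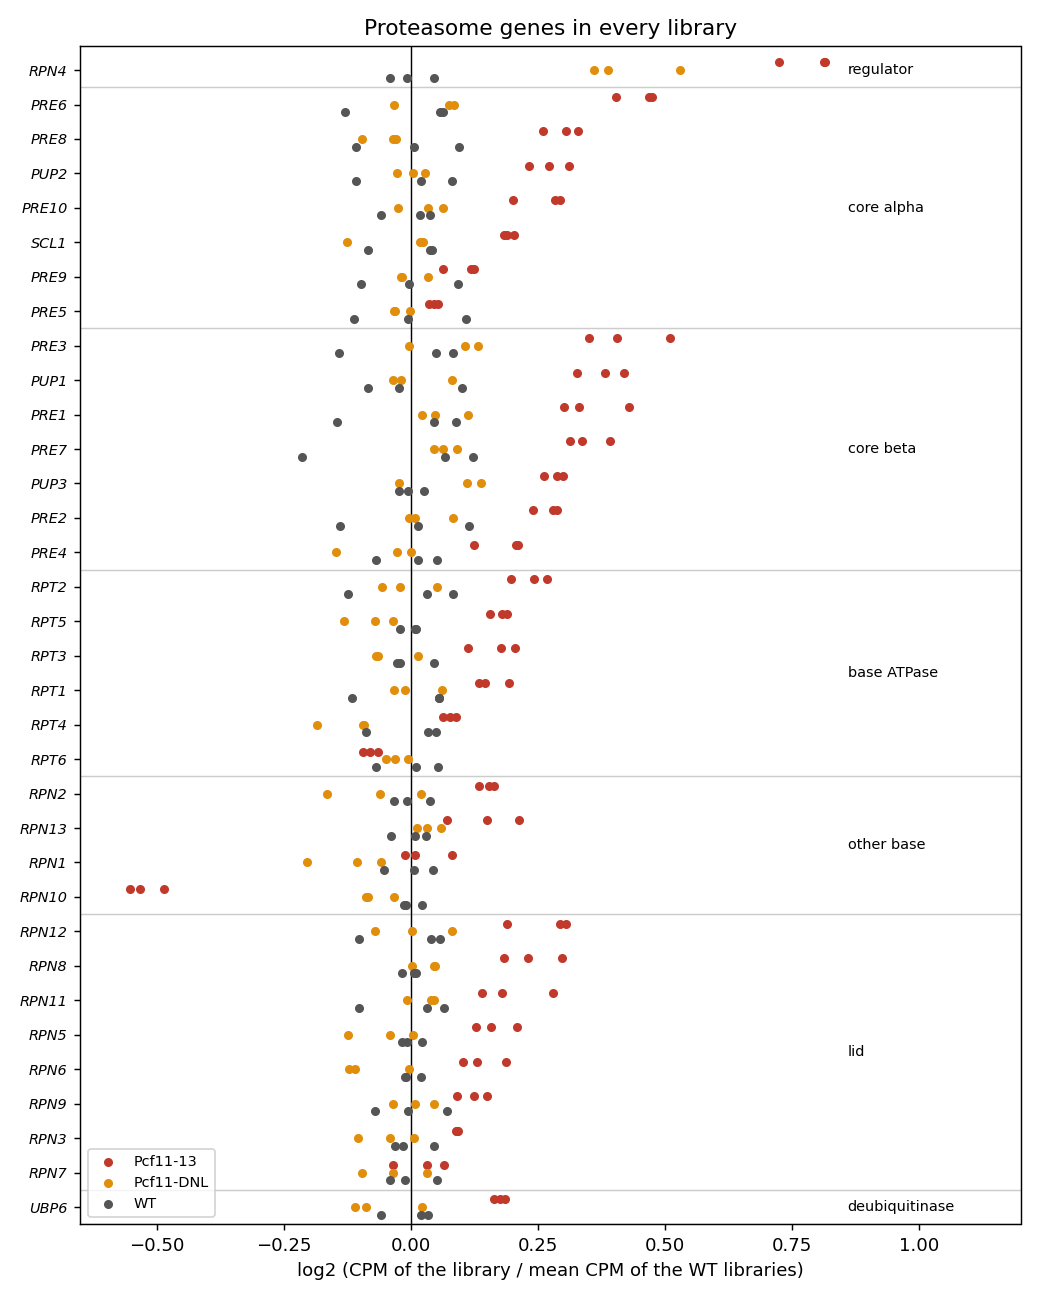
Each row is a gene and each point a library, as log2 of its CPM over the mean CPM of the WT libraries; Pcf11-13 in red, Pcf11-DNL in orange, WT in grey. The red points of RPN4 and of most core subunits stand to the right, those of RPN10 to the left, and the orange points overlap the grey ones in 29 of the 34 rows.

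**Figure D2:**
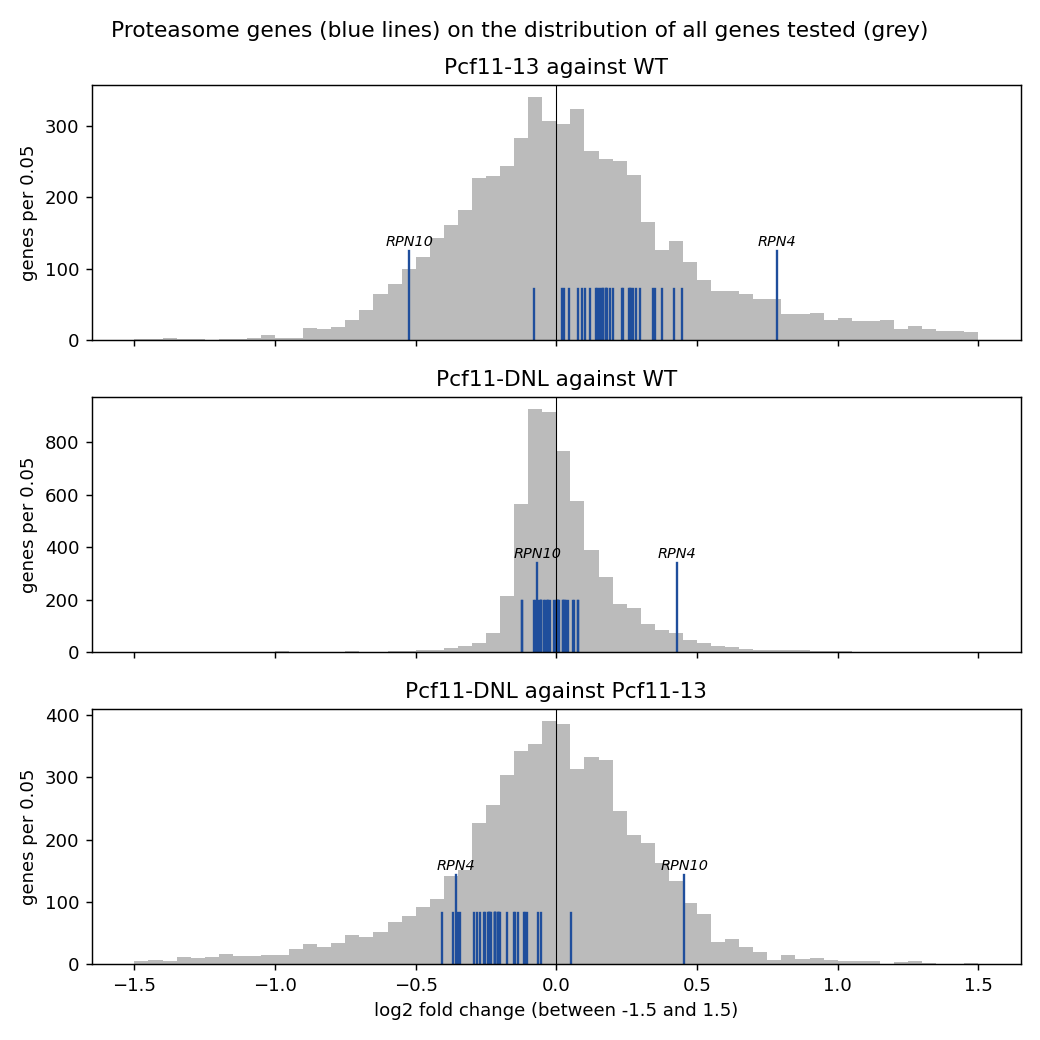
Log2 fold changes of all 5646 genes tested as grey histograms (genes per bin of 0.05, drawn between -1.5 and 1.5), with the 34 members as blue lines; RPN4 and RPN10 are named. The members lie right of 0 in Pcf11-13 against WT in 32 of 34 cases, on both sides in Pcf11-DNL against WT, and left of 0 in 32 of 34 cases in Pcf11-DNL against Pcf11-13.

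RPN4 (YDL020C, chrIV:415113-416708, minus strand, a single coding exon) encodes the transcription factor that binds the box. It had 121, 129 and 129 CPM in Pcf11-13, 94.1, 106 and 96.0 CPM in Pcf11-DNL, and 75.7, 72.9 and 71.3 CPM in WT. The groups did not overlap, with Pcf11-DNL between Pcf11-13 and WT. The change was 0.79 ± 0.05 (SE) in Pcf11-13 against WT, a fold of 1.72 (edgeR adjusted p = 2.81e-09), and 0.43 ± 0.05 in Pcf11-DNL against WT, a fold of 1.35 (edgeR adjusted p = 5.16e-05). In Pcf11-DNL it was lower than in Pcf11-13, by -0.36 ± 0.05 (edgeR adjusted p = 1.74e-05). RPN4 was the highest member in both comparisons with WT. In Pcf11-DNL it was higher while none of the 32 subunits passed the test.

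On either side of RPN4, the gene OSH2 ends 954 bases upstream on the same strand and changed by -0.04 in Pcf11-13 against WT (edgeR adjusted p = 0.447). The convergent gene GPM2 lies 224 bases downstream and was at 12.3 ± 0.657 CPM in Pcf11-13 and 4.98 ± 1.93 CPM in WT (SD, n = 3 each), a log2 change of 1.28. In Pcf11-DNL GPM2 was at 5.03 ± 0.661 CPM (SD, n = 3), a change of -0.005 against WT (edgeR adjusted p = 0.993). These neighbours were looked at after their values were seen. Strand use in the counting is not given in the sources used here, so reads of convergent genes that overlap cannot be told apart, and the part of GPM2 in the RPN4 value was not tested.

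**Figure D3:**
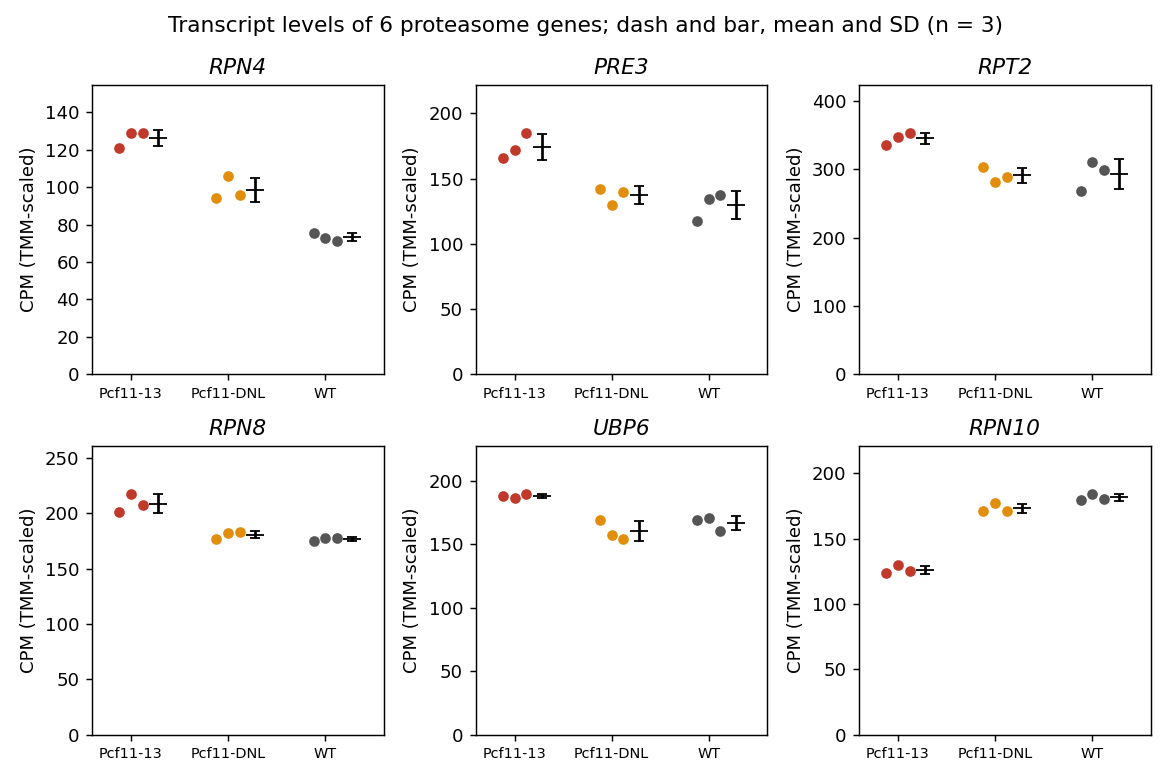
CPM in each library (points) with mean and SD beside them (n = 3) for RPN4 and 5 further genes, axes from 0. RPN4 is stepped, with Pcf11-13 highest and WT lowest; PRE3, RPT2, RPN8 and UBP6 are high in Pcf11-13 alone, and RPN10 is low there.

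The alpha subunits form the outer rings of the core and its gate. Of 7 alpha genes, 5 were higher in Pcf11-13 than in WT, with a median of 0.26 over the 7. For this and every other role, the shares among all genes tested were 35.2% higher and 30.9% lower. PRE6 (YOL038W, chrXV:255337-256101, plus strand; alpha 4) had 228, 239.8 and 239 CPM in Pcf11-13, 183, 169 and 182 CPM in Pcf11-DNL, and 158, 180.2 and 179.6 CPM in WT. Pcf11-13 stood apart, and the Pcf11-DNL and WT values were interleaved. Its change was 0.45 ± 0.05, the highest among the subunits (edgeR adjusted p = 2.08e-06). PRE8 (YML092C, chrXIII:85987-86739, minus strand; alpha 2) had 225, 236 and 233 CPM in Pcf11-13, 184, 176 and 185 CPM in Pcf11-DNL, and 175, 201 and 189 CPM in WT. Its change was 0.30 ± 0.05 in Pcf11-13 against WT (edgeR adjusted p = 6.87e-05), and the Pcf11-DNL values fell within the WT range.

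PUP2, PRE10 and SCL1, the other alpha genes past the test, changed by 0.27, 0.26 and 0.19. ERG4, convergent with SCL1 at 212 bases, changed by 0.35 (edgeR adjusted p = 2.71e-06). It was looked at after its values were seen, and the part of its reads in the SCL1 value was not tested. PRE9, the alpha subunit whose gene is dispensable for growth, changed by 0.10 ± 0.05 (edgeR adjusted p = 0.0769), and PRE5 by 0.04 ± 0.05 (edgeR adjusted p = 0.454). Both had overlapping libraries. Residuals of same-numbered Pcf11-13 and WT libraries correlated. With the replicate number as a block in a fit of these groups alone PRE9 passed at 0.09 (edgeR adjusted p = 0.0421). It also passed without WT replicate 2, at 0.15 (edgeR adjusted p = 0.0153).

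The beta rings hold the active sites, on Pre3, Pup1 and Pre2. All 7 beta genes were higher in Pcf11-13, with a median of 0.35. PRE3 (YJL001W, chrX:435163-435926, plus strand, 2 coding exons; the caspase-like site) had 165, 172 and 185 CPM in Pcf11-13, 142, 129 and 139.8 CPM in Pcf11-DNL, and 118, 134 and 137 CPM in WT. PUP1 (YOR157C, chrXV:630966-631751, minus strand; the trypsin-like site) had 191, 198 and 203 CPM in Pcf11-13, 161, 148 and 149.9 CPM in Pcf11-DNL, and 143, 163 and 149.6 CPM in WT. In both genes every Pcf11-13 library lay above all others, and the remaining groups overlapped.

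The changes against WT were 0.42 ± 0.06 for PRE3 (edgeR adjusted p = 1.43e-05) and 0.38 ± 0.05 for PUP1 (edgeR adjusted p = 9.45e-06). PRE2, the gene of the chymotrypsin-like site, changed by 0.27 ± 0.05 (edgeR adjusted p = 0.000462), so the genes of all 3 active subunits were higher. Among the beta subunits with no active site, PRE1 changed by 0.35, PRE7 by 0.35, PUP3 by 0.28 and PRE4 by 0.18. Over the whole core, 12 of 14 genes were higher, none was lower and the median was 0.28, against 35.2% higher and 30.9% lower among all genes. In Pcf11-DNL against WT no core gene passed, also at an unadjusted p under 0.05, and the median of the 14 was 0.02.

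The ATPases Rpt1 to Rpt6 form the ring of the base that unfolds substrates and opens the core. Of the 6 genes, 4 were higher in Pcf11-13 than in WT, with a median of 0.16 over the 6. RPT2 (YDL007W, chrIV:438047-439360, plus strand), whose product helps to open the gate of the core, had 336, 347 and 353 CPM in Pcf11-13, 304, 282 and 289 CPM in Pcf11-DNL, and 269, 310.4 and 299.6 CPM in WT. It was higher by 0.24 ± 0.05 (edgeR adjusted p = 0.000926). RPT5 (YOR117W, chrXV:545029-546333, plus strand) had 296, 301 and 303.4 CPM in Pcf11-13, 259.7, 243 and 253 CPM in Pcf11-DNL, and 268, 268 and 262 CPM in WT. It was higher by 0.18 ± 0.04 in Pcf11-13 (edgeR adjusted p = 0.00134). All Pcf11-DNL libraries of RPT5 lay below WT, with a change of -0.08 ± 0.04 that did not pass (edgeR adjusted p = 0.224).

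RPT3 changed by 0.17 and RPT1 by 0.16, both past the test. RPT4 (YOR259C, chrXV:812395-813708, minus strand) had 296, 301 and 299 CPM in Pcf11-13, 265, 249 and 265 CPM in Pcf11-DNL, and 266, 293 and 289.9 CPM in WT. It changed by 0.08 ± 0.05 in Pcf11-13 against WT (edgeR adjusted p = 0.160). In Pcf11-DNL the change was -0.12 ± 0.05 (edgeR adjusted p = 0.0923), the lowest of the members in that comparison. Neither passed, but without WT replicate 1 the Pcf11-DNL value was -0.16 (edgeR adjusted p = 0.0111).

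RPT6 changed by -0.08 ± 0.04 in Pcf11-13 (edgeR adjusted p = 0.111), with libraries that overlapped those of WT. It passed as lower at -0.09 with the replicate number as a block in a fit of these groups alone (edgeR adjusted p = 0.0462), and at -0.11 without WT replicate 1 (edgeR adjusted p = 0.0149). It also passed as lower at -0.10 with DESeq2 size factors in edgeR (adjusted p = 0.0467) and by the DESeq2 Wald test (adjusted p = 0.0401). Scaled by library totals alone RPT6 passed in the other direction, as higher, at 0.13 (edgeR adjusted p = 0.0153), where the median of all genes was 0.25. With TMM that median was 0.03, so RPT6 stood below the median gene under both scalings.

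The other base subunits are Rpn1 and Rpn2, the large scaffolds, and the ubiquitin receptors Rpn10 and Rpn13. Of the 4 genes, RPN2 and RPN13 were higher in Pcf11-13, RPN10 was lower and RPN1 did not pass. Among all genes 35.2% were higher and 30.9% lower. RPN10 (YHR200W, chrVIII:499079-499885, plus strand, 1 coding exon) had 124, 129.6 and 125 CPM in Pcf11-13, 171, 177 and 171 CPM in Pcf11-DNL, and 179.7, 184 and 180.3 CPM in WT. Pcf11-13 stood far below, and the Pcf11-DNL libraries also lay below all of WT. The change was -0.52 ± 0.04 in Pcf11-13 against WT, a fold of 0.696 (edgeR adjusted p = 1.81e-08). In Pcf11-DNL it was -0.07 ± 0.04 against WT (edgeR adjusted p = 0.276) and 0.46 ± 0.04 against Pcf11-13 (edgeR adjusted p = 1.42e-07). RPN10 is the member past the test in the other direction in Pcf11-13, and it passed as lower in all 17 alternative fits, from -0.54 to -0.31.

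PPX1, the gene convergent with RPN10, lies 64 bases away, the closest convergent pair among 18 such members. PPX1, which encodes an exopolyphosphatase, was also lower in Pcf11-13, at 104 ± 1.50 CPM, against 169.98 ± 4.47 CPM in WT (SD, n = 3 each). Its log2 change was -0.71 (edgeR adjusted p = 7.19e-10), and in Pcf11-DNL against WT it was -0.02 (edgeR adjusted p = 0.735). PPX1 was looked at after its values were seen. Whether reads of one gene were counted for the other was not tested, since the strand setting is not given in the sources used here.

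RPN2 (YIL075C, chrIX:217863-220700, minus strand) had 629.7, 634 and 621 CPM in Pcf11-13, 574, 505 and 543 CPM in Pcf11-DNL, and 581, 553 and 563 CPM in WT. It was higher by 0.15 ± 0.05 in Pcf11-13 (edgeR adjusted p = 0.0101). RPN1 (YHR027C, chrVIII:161730-164711, minus strand) had 524, 550.1 and 516 CPM in Pcf11-13, 499.7, 452 and 484 CPM in Pcf11-DNL, and 537, 502 and 522 CPM in WT. Its libraries overlapped between Pcf11-13 and WT, with a change of 0.03 ± 0.05 (edgeR adjusted p = 0.625). All Pcf11-DNL libraries of RPN1 lay below WT, with a change of -0.12 ± 0.05 that did not pass (edgeR adjusted p = 0.106). RPN13 changed by 0.15 in Pcf11-13 (edgeR adjusted p = 0.0124), a call that was lost without Pcf11-13 replicate 2 (0.11, edgeR adjusted p = 0.0801) and by the DESeq2 Wald test (0.12, adjusted p = 0.0711).

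The lid cuts ubiquitin chains from the substrate through Rpn11. Of 8 lid genes, 6 were higher in Pcf11-13 than in WT, with a median of 0.15 over the 8. RPN8 (YOR261C, chrXV:815915-816931, minus strand), the partner of Rpn11, had 201, 218 and 207 CPM in Pcf11-13, 177, 182 and 183 CPM in Pcf11-DNL, and 175, 178 and 178 CPM in WT. The change was 0.24 ± 0.04 (edgeR adjusted p = 0.000118), with Pcf11-13 above all other libraries. RPN12 (YFR052W, chrVI:252505-253329, plus strand) had 173, 186 and 188 CPM in Pcf11-13, 152, 145 and 161 CPM in Pcf11-DNL, and 142, 156 and 158 CPM in WT. Its change was 0.26 ± 0.05 (edgeR adjusted p = 0.000453).

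RPN11 itself changed by 0.20, RPN5 by 0.17, RPN6 by 0.14 and RPN9 by 0.12, all past the test. The RPN9 call (edgeR adjusted p = 0.0272) was lost without WT replicate 1 (0.09, edgeR adjusted p = 0.0777), without WT replicate 3 (0.12, edgeR adjusted p = 0.0642), without Pcf11-13 replicate 1 (0.11, edgeR adjusted p = 0.0844) and without Pcf11-13 replicate 3 (0.12, edgeR adjusted p = 0.0641). It was also lost with DESeq2 size factors (0.10, edgeR adjusted p = 0.0658), by the DESeq2 Wald test (0.10, adjusted p = 0.0789) and in a fit of the compared groups alone (0.11, edgeR adjusted p = 0.0623). RPN9 thus passed in 10 of 17 alternatives. RPN6 was lost without Pcf11-13 replicate 3 (0.12, edgeR adjusted p = 0.0607), and the ATPase gene RPT1 without Pcf11-13 replicate 2 (0.14, edgeR adjusted p = 0.0501). RPN3, at 0.09 ± 0.04 (edgeR adjusted p = 0.0727), and RPN7, at 0.02 ± 0.05 (edgeR adjusted p = 0.696), did not pass, though RPN3 passed without WT replicate 2 (0.11, edgeR adjusted p = 0.0499). Over the 18 genes of the 19S particle, 12 were higher and 1 was lower, with a median of 0.15, against 35.2% and 30.9% of all genes.

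UBP6 (YFR010W, chrVI:165067-166566, plus strand), the deubiquitinase that sits on the base, had 188, 187 and 189.7 CPM in Pcf11-13, 169, 157 and 155 CPM in Pcf11-DNL, and 169, 171 and 160.2 CPM in WT. The Pcf11-13 libraries were above all others, and the Pcf11-DNL and WT libraries overlapped. It was higher by 0.18 ± 0.05 in Pcf11-13 (edgeR adjusted p = 0.00295). The change in Pcf11-DNL against WT was -0.06 ± 0.05 (edgeR adjusted p = 0.439).

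WT replicate 1 bears on the size of these changes, since it was the lowest WT library for the core. Without it, 25 members were higher and 2 lower in Pcf11-13, and the median was 0.16. With the replicate number as a block in a fit of the Pcf11-13 and WT libraries alone, 27 were higher and 2 lower.

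Levels of different genes were compared per length, as CPM per kilobase of coding sequence. In WT the 32 subunits lay within a range of 1.81-fold, from 163 (RPN7) to 294 (PUP2), with a median of 234 for the core and 198 for the 19S particle. In Pcf11-DNL the range was 1.86-fold, from 159 (RPN7) to 296 (PRE7). In Pcf11-13 it was 2.30-fold, from 156 (RPN10) to 359.9 (PRE7). The core medians were 278 in Pcf11-13, 238 in Pcf11-DNL and 234 in WT. RPN10 was thus the lowest subunit in Pcf11-13, at 156, against 225 in WT. RPN4 was lowest of all 34 in every group, at 79.1 in Pcf11-13, 61.8 in Pcf11-DNL and 45.9 in WT.

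**Figure D4:**
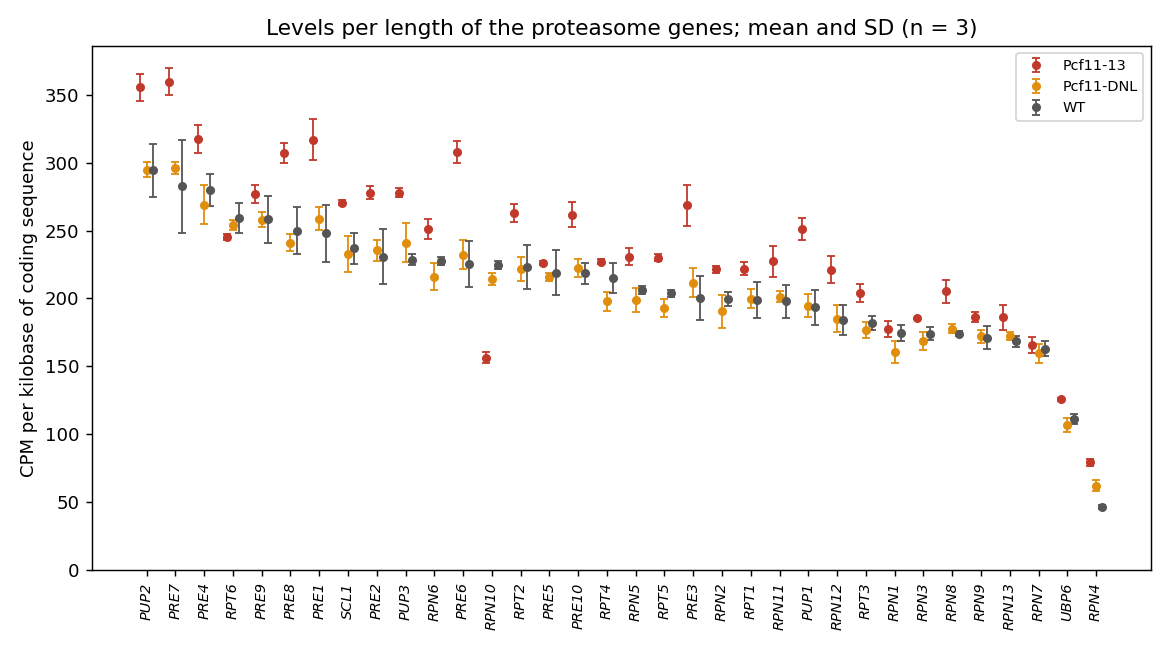
Level per length (CPM per kilobase of coding sequence, mean and SD, n = 3) of the 34 genes in Pcf11-13, Pcf11-DNL and WT, ordered by the WT level. Most red points stand above the orange and grey ones; RPN10 is the red point far below its neighbours, and RPN4 is last.

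Members with and without the exact box had like medians in Pcf11-13 against WT, and the difference was not tested. Of the 27 members with the exact box, all of them subunits, 21 were higher than in WT and none was lower, with a median of 0.18. Of the 7 without it, 5 were higher and 1 was lower, with a median of 0.18. Among all genes 35.2% were higher and 30.9% lower. The 7 include RPN4 and UBP6, and for the 5 subunits without the box 3 were higher and 1 lower, with a median of 0.145. RPN10 is 1 of those 7, with the form A7G that RPN13, which was higher, also carries. Of the 4 genes with G1A, PUP1, RPN8 and UBP6 were higher and PRE5 did not pass. In Pcf11-DNL against WT none of the 27 passed, and the median was -0.01.

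**Figure D5:**
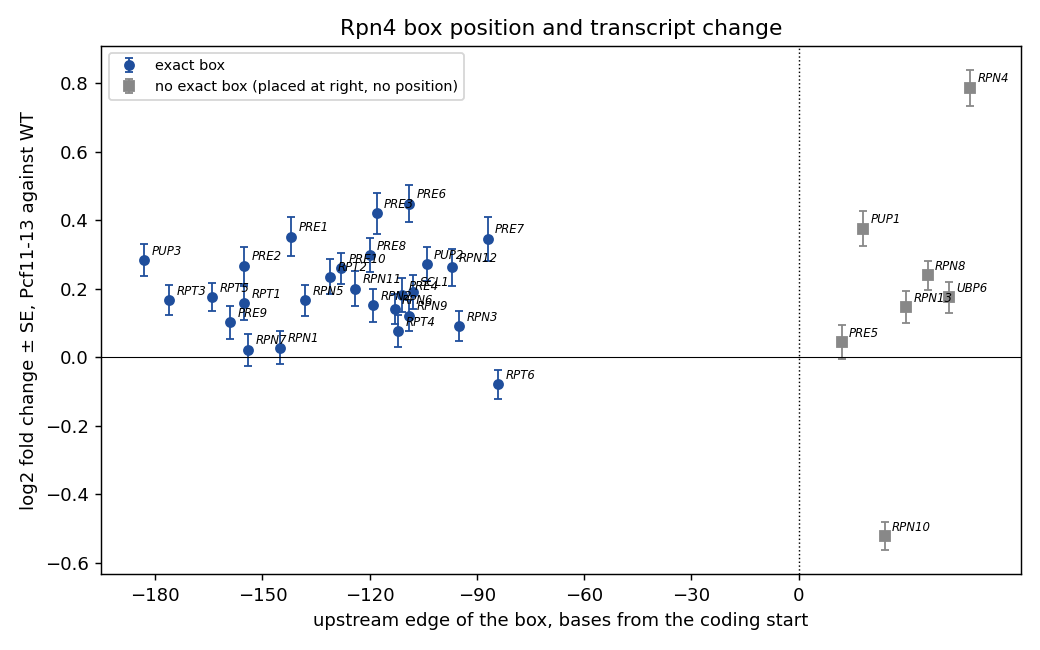
Log2 fold change in Pcf11-13 against WT (± SE) of each member, against the start of its exact box in bases from the coding start; the 7 members with no exact box are grey squares at the right with no position. Changes at all distances between 84 and 183 bases were mostly between 0 and 0.45, and the extremes RPN4 and RPN10 have no exact box.

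Further genes of the pathway come from lists chosen by function, with earlier results of these data known. Of 15 genes for assembly and for proteasome-bound factors, 10 were higher and 1 was lower in Pcf11-13, with a median of 0.20, against 35.2% and 30.9% of all genes. TMA17, a chaperone of the base, was at 32.5 ± 2.54 CPM in Pcf11-13 and 15.0 ± 1.18 in WT (SD, n = 3 each), a change of 1.11 (edgeR adjusted p = 1.28e-08). ECM29, which binds core and 19S particle together and has the exact box, changed by 0.79 (edgeR adjusted p = 5.02e-09). PBA1 and ADD66, chaperones of the core's alpha ring, changed by 0.62 and 0.51. Both were also higher in Pcf11-DNL than in WT, by 0.20 (edgeR adjusted p = 0.0108) and 0.24 (edgeR adjusted p = 0.00334), the only 2 of the 15 past the test there, against 8.73% of all genes higher and 4.3% lower. POC4 and RPN14 changed by 0.27 and 0.14 in Pcf11-DNL and did not pass. The gene that was lower in Pcf11-13 is IRC25, at -0.26, and with library totals it was at -0.05 and did not pass (edgeR adjusted p = 0.543), where the median of all genes was 0.25. BLM10, an activator that caps the core, changed by -0.12 and did not pass (edgeR adjusted p = 0.0706). It passed as lower with the replicate block over all libraries (-0.12, edgeR adjusted p = 0.0253), which makes 2 lower in this list. It also passed with the block in the compared groups alone, with DESeq2 size factors, by the DESeq2 Wald test and without WT replicate 2, at -0.17 to -0.13. SEM1, the smallest lid subunit, stands in this list and not among the members, and it was higher in Pcf11-13 by 0.57 (edgeR adjusted p = 0.000175). IRC25, BLM10 and SEM1 are named after their values were seen.

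Of 27 genes for ubiquitin, its enzymes and the shuttle factors, 16 were higher and 5 lower in Pcf11-13, with a median of 0.20, against 35.2% and 30.9% of all genes. UBI4, the stress-induced polyubiquitin gene, was at 495 ± 28.0 CPM in Pcf11-13 and 248 ± 7.43 in WT (SD, n = 3 each), a change of 1.00 (edgeR adjusted p = 3.64e-09). CUZ1, whose product binds Cdc48 and the proteasome, changed by 0.70, and NPL4, a cofactor of Cdc48, by 0.54. The 5 lower genes were RSP5 at -0.29, UBP14 at -0.28, SSM4 at -0.27, UFD2 at -0.14 and RAD23 at -0.13. They are named after their values were seen. With library totals 0 genes of this list passed as lower, and without WT replicate 2 the UFD2 call was lost (-0.13, edgeR adjusted p = 0.0554). UBA1, the ubiquitin-activating enzyme, was higher in Pcf11-13 by 0.54 (edgeR adjusted p = 5.68e-08) and lower in Pcf11-DNL by -0.19 ± 0.05 (edgeR adjusted p = 0.0154), against WT in each case. In Pcf11-DNL 3 of the 27 were higher and 1, UBA1, was lower, shares near those of all genes, 8.73% and 4.3%. The 3 were the ubiquitin-conjugating enzyme gene UBC1 at 0.32, the nuclear quality-control ligase gene SAN1 at 0.24, and OTU1, a deubiquitinase gene, at 0.19 (edgeR adjusted p = 0.0405). The OTU1 call was lost without any 1 of the Pcf11-DNL or WT libraries and without Pcf11-13 replicate 3, at 0.15 to 0.21 (edgeR adjusted p from 0.0521 to 0.138). It was also lost by the DESeq2 Wald test (0.18, adjusted p = 0.107) and in a fit of the compared groups alone (0.20, edgeR adjusted p = 0.0597). The UBA1 call was lost without Pcf11-DNL replicate 2, at -0.16 (edgeR adjusted p = 0.0757). UBI4, UBA1, CUZ1 and CDC48 hold the exact box.

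The genes that act on Rpn4 form the last list, with 6 members. UBR2 encodes the ligase that marks Rpn4 for degradation, and MUB1 its partner. UBR2 had 72.6, 68.7 and 69.1 CPM in Pcf11-13, 69.0, 65.0 and 69.1 CPM in Pcf11-DNL, and 51.4, 49.2 and 52.9 CPM in WT. Both mutants lay above WT and overlapped each other, and each was higher than WT. The size was 0.46 ± 0.05 for Pcf11-13 (edgeR adjusted p = 8.44e-07), and for Pcf11-DNL it was 0.40 ± 0.05 (edgeR adjusted p = 6.00e-05). MUB1 was higher in Pcf11-13 by 0.38 (edgeR adjusted p = 8.38e-05) and changed by 0.06 in Pcf11-DNL (edgeR adjusted p = 0.552).

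The other 4 encode factors known to act on the RPN4 promoter. YAP1, the oxidative stress factor, was higher in Pcf11-13 by 0.35 (edgeR adjusted p = 8.30e-06) and lower in Pcf11-DNL by -0.17 ± 0.05 (edgeR adjusted p = 0.0299). YAP1 itself holds the exact box GGTGGCAAA, which begins 46 bases before its coding start. The Pcf11-DNL call of YAP1 was lost without Pcf11-DNL replicate 1 or 2 or WT replicate 1 or 2, at -0.17 to -0.14, and with library totals, at -0.12 (edgeR adjusted p = 0.100), where the median of all genes was 0.05. PDR1, a drug resistance factor, was higher in Pcf11-13 by 0.25 and changed by -0.11 in Pcf11-DNL (edgeR adjusted p = 0.136). PDR3 changed by -0.10 in Pcf11-13 and -0.08 in Pcf11-DNL and did not pass. In Pcf11-13 it passed without WT replicate 3, at -0.14 (edgeR adjusted p = 0.0441). With library totals PDR3 passed as higher, at 0.12 (edgeR adjusted p = 0.0318), which was below the median of all genes, 0.25. HSF1, the heat shock factor, was lower in Pcf11-13 by -0.15 ± 0.05 (edgeR adjusted p = 0.0117). Without Pcf11-13 replicate 2 it no longer passed, at -0.11 (edgeR adjusted p = 0.0768), nor with library totals, at 0.06, which was also below that median. In Pcf11-DNL HSF1 changed by 0.11 (edgeR adjusted p = 0.142). The direct comparisons between the mutants, Pcf11-DNL against Pcf11-13, gave -0.52 for YAP1 and -0.05 for UBR2.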

How the data were processed

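Poly(A) RNA of 9 yeast cultures was sequenced in read pairs per the labels' protocols. The authors deposited 1 table of expected counts per gene, as RSEM gives them, without normalization. The submitters' processing notes name Trimmomatic 0.38, FastQC, STAR 2.6.1b, RSEM 1.3, DESeq2 1.26.0 and the build sacCer3. Neither annotation nor strandedness is given in the sources used here, so antisense and convergent overlaps could not be separated. Of all values 10.8% were not whole, and none of the members' was among these.

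After rounding, edgeR 4.0.16 under R 4.3.3 was applied: filterByExpr (minimum count 10, 5646 genes kept, 282 removed), TMM scaling, and a single quasi-likelihood fit of the 3 groups over all 9 libraries, two-sided, Benjamini-Hochberg over all genes. The biological coefficient of variation was 4.59%. Alternatives were DESeq2 size factors, the DESeq2 Wald test (DESeq2 1.42.0), library totals, other filters, the compared groups alone, the replicate number as a block, and leaving out each library.

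The correlation of residuals of same-numbered Pcf11-13 and WT libraries was 0.42, 0.26 and 0.26. Differently numbered libraries of these groups gave -0.35 to 0.07, and same-numbered libraries of the other comparisons -0.07 to 0.17. The numbers were therefore treated as a possible pairing, in the block fits only, and the main fit did not use them. This pairing was read from the correlations and is not stated in the labels.

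The members and lists were chosen with earlier results of these data known. Values in every library are given for RPN4, UBP6, the 2 members of each other role with the smallest adjusted p in Pcf11-13 against WT, up to 4 with the smallest in Pcf11-DNL against WT, and the extremes of each comparison. Of each list up to 4 genes per comparison with the smallest adjusted p are named, and all genes that act on Rpn4. Promoters were read from the RefSeq R64 genome, the same build as sacCer3. Positions are 1-based.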

Additional observations from a re-analysis of the deposited data

How the results depend on the processing

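Across the alternatives, 24 to 33 members were higher in Pcf11-13 than in WT. Leaving out each library gave 24 to 28 higher and 1 to 2 lower, and library totals gave 33. The count of lower members was 2 by the DESeq2 Wald test, with DESeq2 size factors in edgeR, and with the replicate block in the compared groups alone, since RPT6 joined RPN10. In Pcf11-DNL against WT, 1 was higher in each alternative, and leaving out each library gave 0 to 1 lower. In Pcf11-DNL against Pcf11-13, 24 to 33 were lower and 1 was higher. Scaling by library totals moved the median of all genes in Pcf11-13 against WT to 0.25, where TMM gave 0.03, and that of the members to 0.39, where TMM gave 0.18. The members' median stood 0.15 above that of all genes under both. With this shift the sign of RPT6 changed, and it passed the test in 2 comparisons. It was at 0.1333 in Pcf11-13 against WT (edgeR adjusted p = 0.0153). In Pcf11-DNL against Pcf11-13 it was at -0.1126 (edgeR adjusted p = 0.0390), where all genes had a median of -0.18. Relative to the median gene RPT6 stayed lower in the first and higher in the second. In Pcf11-13 against WT the ubiquitin list then had 22 higher and 0 lower, and the assembly list 10 and 0. The list of genes acting on Rpn4 had 5 and 0. These counts, and the 33 members higher, stand against a background that rose as well. Of the 5646 genes tested, library totals called 3372 higher and 861 lower, where TMM called 1988 and 1744. The lists were not tested against this background. With the replicate block over all libraries, 26 members were higher and 1 lower in Pcf11-13. In the comparisons with Pcf11-DNL same-numbered libraries correlated less. There the block in the compared groups alone gave 1 higher against WT, and 28 lower and 1 higher against Pcf11-13. That block fit lost the calls of YAP1 (-0.16, edgeR adjusted p = 0.0630) and OTU1 (0.20, edgeR adjusted p = 0.0648) in Pcf11-DNL against WT. In Pcf11-DNL against Pcf11-13, calls of RPN13, RPN9, RPT1, RPN1, RPN3 and RPN11 were lost in at least 1 of the fits that left out a library. Among the members, the smallest change past the test in Pcf11-13 against WT was 0.12 (RPN9). RPN4 and RPN10 kept their calls in all 17 alternatives of Pcf11-13 against WT.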

Other observations

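Outside the 34 members, 45 protein-coding genes had the exact box GGTGGCAAA in the same window, of 5967, or 0.754%. Of these, 43 were tested, and in Pcf11-13 against WT 27 were higher and 7 lower, with a median of 0.25, against 35.2% and 30.9% of all genes. Among them, 7 are divergent neighbours that share the box with a member, and 6 of these were tested: 3 were higher and 3 lower. NOP14, a ribosome assembly gene divergent from RPN5, was at 200.2 ± 13.1 CPM in Pcf11-13 and 314 ± 23.5 CPM in WT (SD, n = 3 each), a change of -0.65 (edgeR adjusted p = 9.54e-08), while RPN5 was higher by 0.17. YPI1, divergent from RPN11, was higher by 0.72 (edgeR adjusted p = 0.000572). Of the 37 tested genes with the box that are not divergent neighbours, 24 were higher and 4 lower in Pcf11-13, and 5 were higher and 3 lower in Pcf11-DNL against WT, where 8.73% of all genes were higher and 4.3% lower. The 45 genes were taken by the box sequence, though they were looked at after values were seen. NOP14 and YPI1 are named after their values were seen, and no cause was tested.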
